A study of Mus musculus with 15 samples.

Results

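Transgenic mice that drank carnosine (TG drinking water) were compared with untreated wild-type mice (WT control) in the midbrain, across all expressed genes. The comparison took 6 of the 15 sequenced libraries, 3 in each group, chosen by their labels alone. WT mice were of the BDF1 background and received no carnosine. TG mice carried a transgene under the Thy1 promoter, and the drinking water of the treated group held 10 mM carnosine. Mice were 2 months old when the treatment started, and it ran for 2 months. TG mice without carnosine (TG control, 3 libraries) were set beside both groups, and 6 further libraries came from WT and TG mice given 2 mg of carnosine intranasally. There was no group of WT mice that drank carnosine, so genotype and drinking-water carnosine cannot be told apart in this comparison. The labels do not say whether the 3 libraries of a group came from separate mice, and p-values measure the spread between these samples.

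The midbrain holds the dopamine neurons of the substantia nigra, whose loss gives rise to the movement symptoms of Parkinson's disease. The Thy1 promoter drives transgenes broadly in neurons, not only in dopamine neurons. Carnosine is a dipeptide of beta-alanine and histidine that binds metal ions and scavenges reactive compounds. It is made by Carns1, is abundant in muscle and in olfactory neurons, and is split by the dipeptidases Cndp1 and Cndp2.

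WT control libraries held 13202199 to 17759834 counts and TG drinking water libraries 16256593 to 23919657. The dopamine neuron gene Th was at 7.38 to 19.1 CPM, the counts scaled to library size, in WT control and 7.88 to 28.1 CPM in TG drinking water, and Slc6a3, the dopamine transporter, ranged from 3.20 to 39.1 CPM over the 6 libraries. Markers of neighbouring tissue varied between libraries of the same group. The pituitary hormone gene Gh reached 718 CPM in WT control 1 and 36.0 and 46.2 CPM in the other two, and the cerebellar granule cell gene Gabra6 was at 12.6 CPM in TG drinking water 3 and at most 0.267 CPM in the other 5 libraries. The most abundant row without a gene name took 2.39% to 6.22% of counts in WT control and 0.122% to 0.320% in TG drinking water. The sample descriptions number the WT control libraries 1 to 3 and the TG drinking water libraries 13 to 15, so library order and group coincide here.

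How far the groups lay apart was first measured as the root mean square difference in log2 CPM over the 15818 genes tested. The 9 pairs of a TG drinking water and a WT control library lay 0.799 apart on average, with a range of 0.710 to 0.903. Pairs within WT control lay 0.801 apart on average (3 pairs), and pairs within TG drinking water 0.578. Over these genes the distance across the groups was no larger than that among WT control libraries. It was larger than that among TG drinking water libraries, which were the more alike. Over genes that passed a filter of 5 CPM, pairs across the groups lay 0.583 apart. Pairs within WT control then lay 0.530 apart, less than those across the groups, and pairs within TG drinking water 0.375. Pairs of TG control and WT control libraries averaged 0.792, and pairs of TG drinking water and TG control libraries 0.658.

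**Figure D1:**
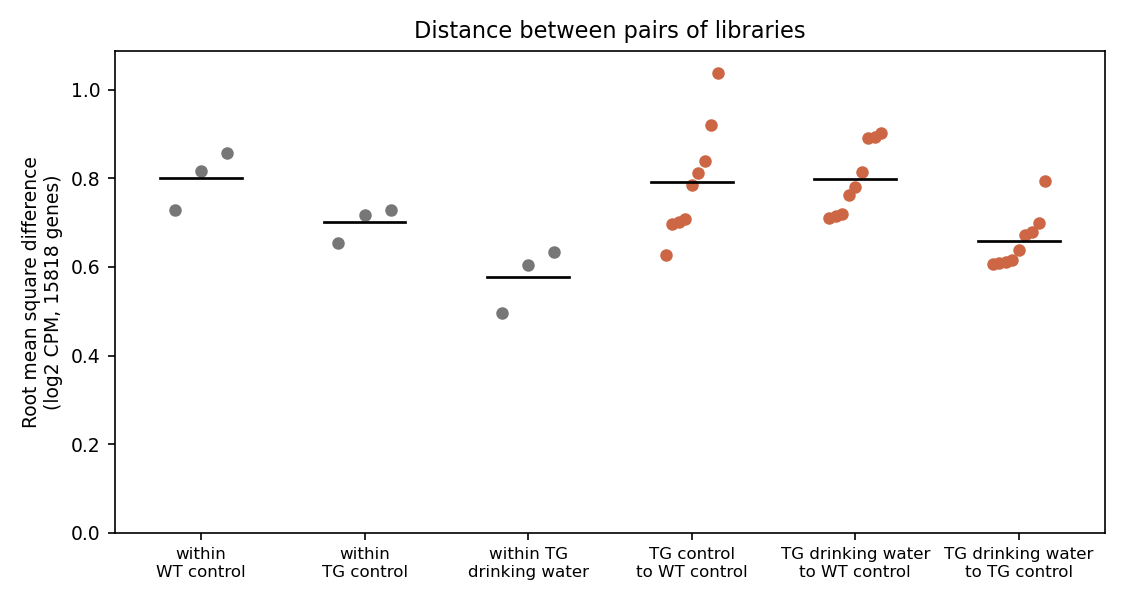
Each point is a pair of libraries, placed by its root mean square difference in log2 CPM over 15818 genes, and horizontal bars are means. Pairs of TG drinking water and WT control libraries average 0.799, next to 0.801 within WT control and 0.578 within TG drinking water. With a filter of 5 CPM, not drawn, the first 2 means were 0.583 and 0.530.

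Gene by gene, 592 of 15818 genes (3.74%) passed an adjusted p of 0.05 in the quasi-likelihood test of edgeR, Benjamini-Hochberg adjusted. In TG drinking water 158 were higher (0.999% of genes tested) and 434 lower (2.74%), and 3374 genes had an unadjusted p under 0.05. The median log2 fold change over all genes tested was 0.01, and for 4358 genes (27.6%) the libraries of the 2 groups did not overlap in CPM. Of the called genes, 157 of the 158 higher and 431 of the 434 lower did not overlap. A lack of overlap between these groups thus adds no support to a call. Genes that rose had a median log2 fold change of 1.11 and a median level of 11.3 CPM in WT control. Genes that fell had a median of -0.85 and a median level of 110.8 CPM in WT control. In the same fit, TG control against WT control gave 2 calls (0.0126%), both higher and Thy1 among them, with 2859 genes at an unadjusted p under 0.05. TG drinking water against TG control gave 1 call (0.00632%), Lrrc17, with 1277 genes at an unadjusted p under 0.05. The difference between these counts was not tested, and the 3 comparisons share libraries.

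The call count rested on single libraries. Without WT control 1, 2 or 3 it was 110, 250 or 761, and without TG drinking water 1, 2 or 3 it was 263, 18 or 75. Of the 592 genes, 16 passed in every fit that left out a library, 8 higher and 8 lower, and 56 passed in none of them. The higher genes among the 16 included Thy1, Mpzl2, Thbd, Cyp1b1, Col12a1, Bmp4 and Bmp6, and the lower were Dact3, Golga7b, Map3k10, Dnpep, Hes5, Lars2, Mir6240 and Mir6236. A term for library order could be estimated from TG control alone, the only group on both sides of the order. It rests on TG control 1 and 2 against TG control 3. Library order thus cannot be told from whatever else set that 1 library apart. The term left 60 calls, 43 of them among the 592.

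**Figure D2:**
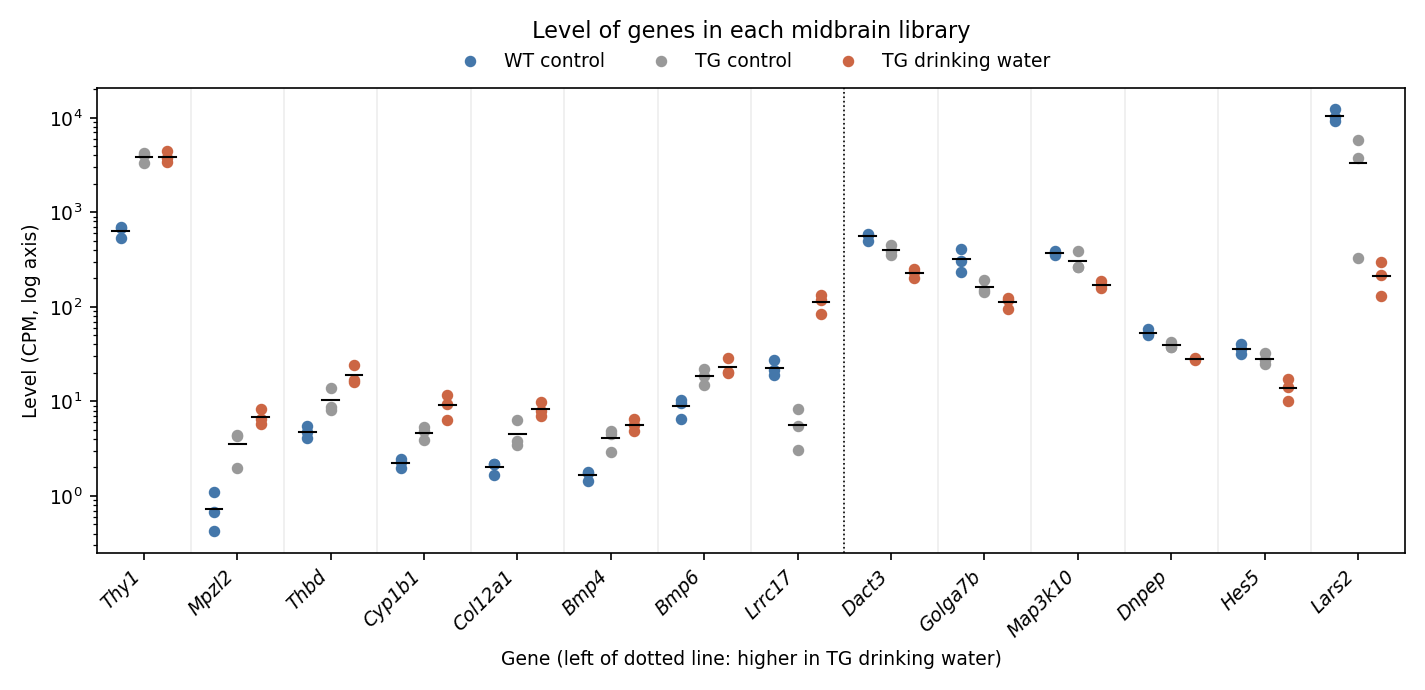
Points are CPM in single libraries of WT control, TG control and TG drinking water on a log axis, and short bars are group means (n = 3). The genes drawn were chosen from those called in this comparison. For every gene drawn the TG drinking water libraries lie on the same side of all WT control libraries, and Lrrc17 alone among them has its TG control libraries below both groups.

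Thy1, a neuronal surface glycoprotein whose promoter drives the transgene, was at 676, 694 and 533 CPM in WT control and at 4405, 3423 and 3744 CPM in TG drinking water. TG control libraries held 4051, 3297 and 4287 CPM. Every TG library lay above every WT control library, and the 2 TG groups overlapped. The log2 fold change of TG drinking water against WT control was 2.60 ± 0.18 (SE, n = 3 per group, adjusted p = 1.66e-06), beside 2.61 for TG control. Reads from the endogenous gene and from Thy1 sequence in the transgene were not separated in these gene counts.

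Mpzl2 encodes an adhesion protein of epithelia. It was at 0.421, 0.681 and 1.09 CPM in WT control libraries, 4.42, 4.27 and 1.97 CPM in TG control, and 6.47, 5.70 and 8.31 CPM in TG drinking water. The 3 groups did not overlap, and the log2 fold change of TG drinking water against WT control was 3.19 ± 0.47 (adjusted p = 0.00483). TG control against WT control gave 2.24 for Mpzl2 (adjusted p = 0.125) and TG drinking water against TG control 0.95 (adjusted p = 0.544).

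Lrrc17, a secreted leucine-rich repeat protein known in bone as an inhibitor of osteoclast formation, had another order of groups. It was at 134, 117 and 83.7 CPM in TG drinking water, 21.6, 19.2 and 27.1 CPM in WT control, and 5.49, 3.08 and 8.30 CPM in TG control. TG drinking water was the highest group and TG control the lowest, with no overlap. The log2 fold change of Lrrc17 was 2.30 ± 0.53 against WT control (adjusted p = 0.0276) and 4.30 against TG control (adjusted p = 0.0228). The call against WT control for Lrrc17 was kept in 1 of the 6 fits that left out a library.

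Thbd, Cyp1b1 and Col12a1 rose. Thbd, the endothelial thrombin receptor thrombomodulin, was at 4.72, 4.15 and 5.52 CPM in WT control and 16.8, 16.2 and 24 CPM in TG drinking water, with TG control between them at 8.06 to 13.8 CPM (log2 fold change 1.99 ± 0.30, adjusted p = 0.00541). Cyp1b1, a cytochrome P450 found in vascular and perivascular cells, was at 2.44, 1.98 and 2.31 CPM against 11.8, 6.28 and 9.31 CPM (2.03 ± 0.31, adjusted p = 0.00541). Col12a1, a collagen that associates with fibrils, was at 2.19, 2.17 and 1.67 CPM against 8.0, 6.95 and 9.86 CPM (2.04 ± 0.32, adjusted p = 0.00638). In these genes each treated library was above each WT control library, and the TG control means lay between the other two.

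Of the 11 meningeal fibroblast markers, 3 rose and none fell, and all 11 had positive values, with a median log2 fold change of 0.96. Over all genes tested 0.999% were called higher and 2.74% lower, and these shares apply beside every list below. None of the 11 was called without TG drinking water 3 or with the library order term, where the medians were 0.95 and 1.79. Fmod, a collagen-binding proteoglycan, was at 11.5, 7.24 and 9.62 CPM in WT control and 31.1, 28.9 and 60.5 CPM in TG drinking water. Aebp1, a matrix protein of collagen-rich tissue, went from 10.2 ± 0.366 CPM (SD, n = 3) to 31.2 ± 8.96 CPM, and Col1a2, a chain of type I collagen, from 15.9 ± 1.09 to 37.7 ± 11.8 CPM. Aebp1 and Col1a2 each kept their call in 2 of the 6 fits without a library, and Fmod in 5. Efemp1, an extracellular matrix fibulin outside that list, also rose, from 6.60 ± 1.72 to 15.7 ± 1.47 CPM. The summed level of the meningeal markers was 206 to 217 CPM in WT control and 308 to 491 CPM in TG drinking water, without overlap. TG control libraries, at 248 to 386.5 CPM, also lay above WT control and overlapped TG drinking water. The median of the list was 0.87 for TG control against WT control and 0.41 for TG drinking water against TG control.

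Endothelial markers had 2 of 13 called, Thbd and Vwf, both higher, beside 0.999% of all genes tested. Their median log2 fold change was 0.87. With the library order term none was called, and the median was 1.69. Vwf, the clotting glycoprotein of endothelium, was at 3.03, 1.73 and 2.95 CPM in WT control and 4.02, 10.6 and 16.4 CPM in TG drinking water. Its call was kept in 1 of the 6 fits without a library. Of 10 mural cell markers only Vtn was called. Vtn, which encodes vitronectin, rose from 39.5 ± 3.39 to 75.4 ± 12.5 CPM, and its call was lost in all 6 fits that left out a library. Choroid plexus markers were positive in 12 of 12, with a median of 1.08, and Igf2 and Enpp2 were called. Without WT control 1 the median was 0.59 with 0 called, without WT control 3 it was 1.90 with 4 called, and with the library order term 0.55 with 0 called. Igf2 kept its call in 2 and Enpp2 in 1 of the 6 fits without a library. Enpp2, the lysophospholipase autotaxin, was at 153, 199.8 and 385 CPM in WT control and 632, 853 and 671 CPM in TG drinking water. The summed choroid plexus level ran from 293 to 2160 CPM in WT control and from 2167 to 2869 CPM in TG drinking water, and Ttr, its defining gene, was at 49.9, 472 and 1549 CPM in WT control. TG control against WT control had medians of 0.57 for endothelial, -0.30 for mural and 0.60 for choroid plexus markers. TG drinking water against TG control had 0.34, 0.94 and 0.58 in the same order. In bulk tissue a larger number of such cells and more RNA in each cannot be told apart, and the part of choroid plexus tissue in these changes was not tested.

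The bone morphogenetic proteins Bmp4 and Bmp6 are secreted ligands of the transforming growth factor beta superfamily. Bmp4, which is also expressed by committed oligodendrocyte precursors, was at 1.77, 1.42 and 1.80 CPM in WT control and 6.51, 4.90 and 5.65 CPM in TG drinking water (log2 fold change 1.78 ± 0.30, adjusted p = 0.00736). Bmp6 was at 6.57, 9.72 and 10.4 CPM against 19.9, 20.4 and 28.6 CPM (1.36 ± 0.23, adjusted p = 0.00835). Both ligands were above every WT control library in each TG drinking water library and also in each TG control library.

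Of 11 oligodendrocyte precursor markers 3 rose, Bmp4, Vcan and Gpr17, beside 0.999% of all genes tested, and 10 were positive. The median of the list was 0.59, with 0.47 for TG control against WT control and 0.01 for TG drinking water against TG control. Vcan, the proteoglycan versican, was at 5.05, 3.03 and 10.3 CPM in WT control and 19.6, 20.2 and 18.8 CPM in TG drinking water. Gpr17, a receptor of differentiating precursors, went from 33.0 ± 10.3 to 71.5 ± 13.7 CPM. Vcan and Gpr17 each kept their call in 1 of the 6 fits without a library. None of 16 myelin and oligodendrocyte genes was called, and their median was 0.36.

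Of 18 genes of activated microglia and antigen presentation 2 were called, H2-Eb1 and Cd74, both higher, and the median of the list was 0.34. The summed level of the list was lower in TG drinking water, at 3044 to 3313 CPM against 3603 to 4505 CPM in WT control, without overlap. H2-Eb1, a chain of the major histocompatibility complex class II, was at 0.674, 0.681 and 1.60 CPM in WT control and 7.16, 4.23 and 6.37 CPM in TG drinking water (log2 fold change 2.57 ± 0.48, adjusted p = 0.0110). Cd74, the invariant chain of class II molecules, was at 6.65, 2.35 and 6.09 CPM against 14.4, 12.4 and 17.3 CPM (1.56 ± 0.31, adjusted p = 0.0143). Of 16 microglia markers 12 were positive, with a median of 0.31, and 1 was called higher and none lower. Csf1r, the receptor for colony-stimulating factor 1, rose from 101 ± 32.5 to 184 ± 17.7 CPM (adjusted p = 0.0491). The call of Csf1r was kept in 1 of the 6 fits without a library. Itgam, another microglial receptor, missed the threshold at 1.10 ± 0.30 (adjusted p = 0.0528), and Tyrobp, a short adaptor gene of the same cells, was at -0.80 ± 0.27 (adjusted p = 0.10). Cp, the ferroxidase ceruloplasmin, was the only called gene of 15 reactive astrocyte genes, at 6.15, 6.75 and 6.54 CPM in WT control and 20.3, 17.7 and 23.8 CPM in TG drinking water.

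Stress and trafficking genes with higher levels were few. Bag3, a cochaperone of Hsp70 in selective autophagy, was at 13.6, 12.2 and 13.2 CPM in WT control and 31.6, 26.7 and 20.2 CPM in TG drinking water (log2 fold change 1.01 ± 0.17, adjusted p = 0.00835). Dnajb1, an Hsp40 chaperone, was also called, at 56.8, 57.7 and 39.0 CPM against 115, 114 and 56.8 CPM, but TG drinking water 3 lay within the WT control range. These were the 2 called of 16 heat shock chaperones. Npc1, the lysosomal cholesterol transporter, rose from 32.5 ± 3.78 to 71.6 ± 9.34 CPM. Ahnak, a very large scaffold protein, went from 18.5 ± 4.75 to 61.7 ± 1.20 CPM, and Pld1, a phospholipase D, from 9.59 ± 1.75 to 20.0 ± 2.03 CPM (adjusted p = 0.00835 for both). Flnc, an actin crosslinker, was at 0.842, 2.91 and 2.82 CPM in WT control and 15.5, 5.53 and 6.81 CPM in TG drinking water. Dnajb1, Npc1 and Flnc each kept their call in 1 of the 6 fits without a library.

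Immediate early genes were positive in 17 of 17, with a median log2 fold change of 1.09, yet none passed the test. The median was 0.95 for TG control against WT control and 0.03 for TG drinking water against TG control. Fos was at 140 CPM in TG drinking water 1 and at 25.5 and 36.0 CPM in the other two, beside 11.1 to 23.4 CPM in WT control. TG control libraries held 175.5, 18.7 and 14.6 CPM of Fos. Leaving out a library moved the median of this list between 0.23 and 1.33.

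Among genes that fell, Hes5 is a transcriptional repressor and a direct target of Notch signalling, in which Rbpj binds promoters at the letters TGGGAA or their reverse complement. It was at 35.7, 40.7 and 31.6 CPM in WT control libraries, 32.5, 27.3 and 24.6 CPM in TG control, and 10.1, 14.1 and 17.2 CPM in TG drinking water. TG drinking water lay below the other 2 groups without overlap. The log2 fold change of Hes5 against WT control was -1.39 ± 0.19 (adjusted p = 0.00232), and against TG control it was -1.03 (adjusted p = 0.109). With a correction for transcript length and GC the value of Hes5 against WT control was -0.77 (adjusted p = 0.0552). Hes5 was the only called gene of 16 in the Notch pathway, whose median was 0.32.

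The 250 bases before the start of Hes5 are shown because the gene fell and is a known Notch target. They lie at chr4:154960673-154960922 on the plus strand of GRCm38.p6 in RefSeq, and capitals mark the letters TGGGAA on either strand.
Hes5: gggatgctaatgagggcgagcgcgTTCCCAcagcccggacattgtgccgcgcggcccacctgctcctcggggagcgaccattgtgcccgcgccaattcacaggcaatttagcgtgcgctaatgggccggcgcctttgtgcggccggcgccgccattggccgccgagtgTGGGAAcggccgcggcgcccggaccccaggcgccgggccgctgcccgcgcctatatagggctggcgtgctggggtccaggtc
The window holds 2 matches, and 21.6% of 32851 RefSeq windows of this length hold at least 1. Its GC content is 71.6%. A match is a string of letters and does not show binding.

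Dact3, an antagonist of Wnt signalling, was at 596, 576 and 494 CPM in WT control libraries, 392, 356 and 454 CPM in TG control, and 249, 200.3 and 236 CPM in TG drinking water (log2 fold change -1.28 ± 0.15 against WT control, adjusted p = 0.00113). Golga7b, a partner of palmitoyltransferases, was at 409.8, 307 and 235 CPM in WT control and 124, 95.9 and 118 CPM in TG drinking water (-1.49 ± 0.20, adjusted p = 0.00237). Map3k10, a mixed-lineage kinase upstream of Jnk, was at 368, 393 and 352 CPM against 187, 157 and 171 CPM (-1.11 ± 0.16, adjusted p = 0.00436). These 3 genes kept their calls in all 18 other fits, the library order term among them. Dnpep, an aspartyl aminopeptidase, fell from 53.5 ± 4.41 to 28.3 ± 0.611 CPM with TG control between at 39.2 ± 2.61 CPM.

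Further lower genes were named for their small p-values. Tst, a mitochondrial sulfurtransferase, fell from 113 ± 19.8 to 56.0 ± 2.60 CPM. Rhot2, which tethers mitochondria to transport motors, fell from 191 ± 46.3 to 87.9 ± 7.43 CPM. Rtn2, a reticulon that shapes the endoplasmic reticulum, fell from 356 ± 94.4 to 132 ± 23.1 CPM, and Rell2, a member of the Relt family, from 106 ± 21.4 to 52.5 ± 6.52 CPM (adjusted p = 0.00541 for each of the 4). Metrn, a secreted factor of glia, was at 748, 289 and 364 CPM in WT control and 141, 117 and 139 CPM in TG drinking water, with TG control at 211, 117 and 150.1 CPM. WT control 1 stood above the other WT libraries in this gene.

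Among the genes named, the largest falls were in rows grouped here as rRNA-like or small noncoding, of which 5 of 7 were called lower and none higher. Lars2, the mitochondrial leucyl-tRNA synthetase, was at 9204, 10142 and 12284 CPM in WT control and 298, 129.7 and 216 CPM in TG drinking water. TG control was split, at 5789, 3747 and 328 CPM. The order term separates libraries numbered 1 to 8 from those numbered 9 to 15, and TG control 2 and 3 are numbers 8 and 9. That cut falls where Lars2 drops within TG control, so the term takes up this drop and is no check of it. Lars2 had a log2 fold change of -5.62 ± 0.72 (adjusted p = 0.00202), and with the library order term it was -1.76 (adjusted p = 0.148). Mir6240 was at 187, 223 and 271 CPM against 4.46, 2.09 and 2.99 CPM, and Mir6236 at 612, 680.1 and 836 CPM against 22, 7.22 and 12.8 CPM. In both, TG control 3 at 6.56 and 18.4 CPM lay far below the other TG control libraries. The share of counts in the abundant unnamed row moved with them, at 2.31% in TG control 2 and 0.157% in TG control 3. A fit without that row, Lars2, Mir6236 and Mir6240 gave 526 calls, 525 of them among the 592. The cause of the split in TG control was not tested.

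The mature sequences of the 2 microRNA genes called lower are given from RefSeq (GRCm38.p6, chromosomes 5 and 9), with the seed, bases 2 to 8, in capitals.
mmu-miR-6240: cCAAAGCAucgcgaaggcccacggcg
mmu-miR-6236: gCCGUCGCcggcagucagg
The seeds differ. Gene counts of total RNA count reads over the microRNA gene and do not measure the mature microRNA.

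Cdr1 was at 95.7, 116 and 105 CPM in WT control and 10.8, 10.7 and 21.7 CPM in TG drinking water (log2 fold change -2.88 ± 0.50, adjusted p = 0.00835). TG control was at 108, 137 and 38.5 CPM. Cdr1 overlaps an antisense transcript that is abundant in brain, and since the strand setting is not given in the sources used here the 2 cannot be told apart. Omp, the olfactory marker protein, was called lower, at 0.758, 39.4 and 2.50 CPM in WT control and 0.111 to 0.523 CPM in TG drinking water. The groups did not overlap in Omp, with WT control 2 far above the rest. Without WT control 2 its log2 fold change was -2.47 (adjusted p = 0.148), in place of -5.56, and the call of Omp held in 3 of the 6 fits without a library. Gng13, a G protein subunit also found in olfactory and taste cells, fell from 89.5 ± 44.4 to 31.6 ± 10.5 CPM.

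Genes of energy and protein production had negative values almost throughout, though few passed the test. All 36 subunits of respiratory complex I had negative values, with a median log2 fold change of -0.48, and 4 were called lower and none higher. Ndufa2 was at 415, 236 and 292 CPM in WT control and 193, 122 and 118 CPM in TG drinking water, and Ndufs7, a core subunit, at 238, 178 and 139 CPM against 115, 96.1 and 101 CPM. Complexes II to V had 8 of 38 called lower, all 38 negative and a median of -0.55. Among them Cyc1, the cytochrome c1 of complex III, fell from 331 ± 72.1 to 193 ± 21.4 CPM, Uqcrc1 of the same complex from 443 ± 62.0 to 283 ± 20.0 CPM, and Atp5d of the ATP synthase from 447 ± 85.3 to 250.1 ± 40.1 CPM. TG control against WT control had medians of -0.65 and -0.66 for these 2 lists, with no call. TG intranasal against WT intranasal, which shares no library with the comparison reported, had medians of 0.60 and 0.63, of the opposite sign.

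Cytosolic ribosomal protein genes were negative in 75 of 76, with a median of -0.58 and 5 called lower. The median was -0.83 for TG control against WT control and 0.77 for TG intranasal against WT intranasal. Rplp1, a protein of the ribosomal stalk, was at 5524, 2668 and 4251 CPM in WT control and 1792, 1214 and 1253 CPM in TG drinking water. Rpl8 and Rplp0, of the large subunit, fell with log2 fold changes of -1.14 ± 0.27 and -1.13 ± 0.25. Mitochondrial ribosomal protein genes had 3 of 78 called lower, Mrpl28, Mrps16 and Mrps34, and a median of -0.25. Over all genes tested 2.74% were called lower. Ribosomal protein genes have many processed pseudogenes, and how reads shared with these were counted is not given in the sources used here. The proteasome had 2 of 34 called lower, Psmb3 and Psmb10, and a median of -0.13.

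These lists are made of short transcripts, with median lengths of 823.5 to 1476 bases against 3070.5 over all genes tested. After a correction of each library for the length and GC of transcripts the median was -0.11 for complex I, -0.17 for complexes II to V, -0.19 for cytosolic ribosomal proteins, -0.08 for mitochondrial ribosomal proteins and 0.02 for the proteasome. These corrected medians were all nearer to 0. The correction takes out any change that goes with length or GC content, technical or not, and the cause was not tested. Calls lower after the correction were 1 for complex I (4 before), 6 for complexes II to V (8 before), 6 for cytosolic ribosomal proteins (5 before), 2 for mitochondrial ribosomal proteins (3 before) and 0 for the proteasome (2 before). Without WT control 1 the uncorrected medians were -0.33, -0.37, -0.36, -0.14 and -0.06 in the same order. None of the 5 lists held a call without WT control 1, TG drinking water 2 or TG drinking water 3, nor with the library order term. Meningeal, endothelial and choroid plexus markers had corrected medians of 0.94, 0.67 and 1.15.

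**Figure D3:**
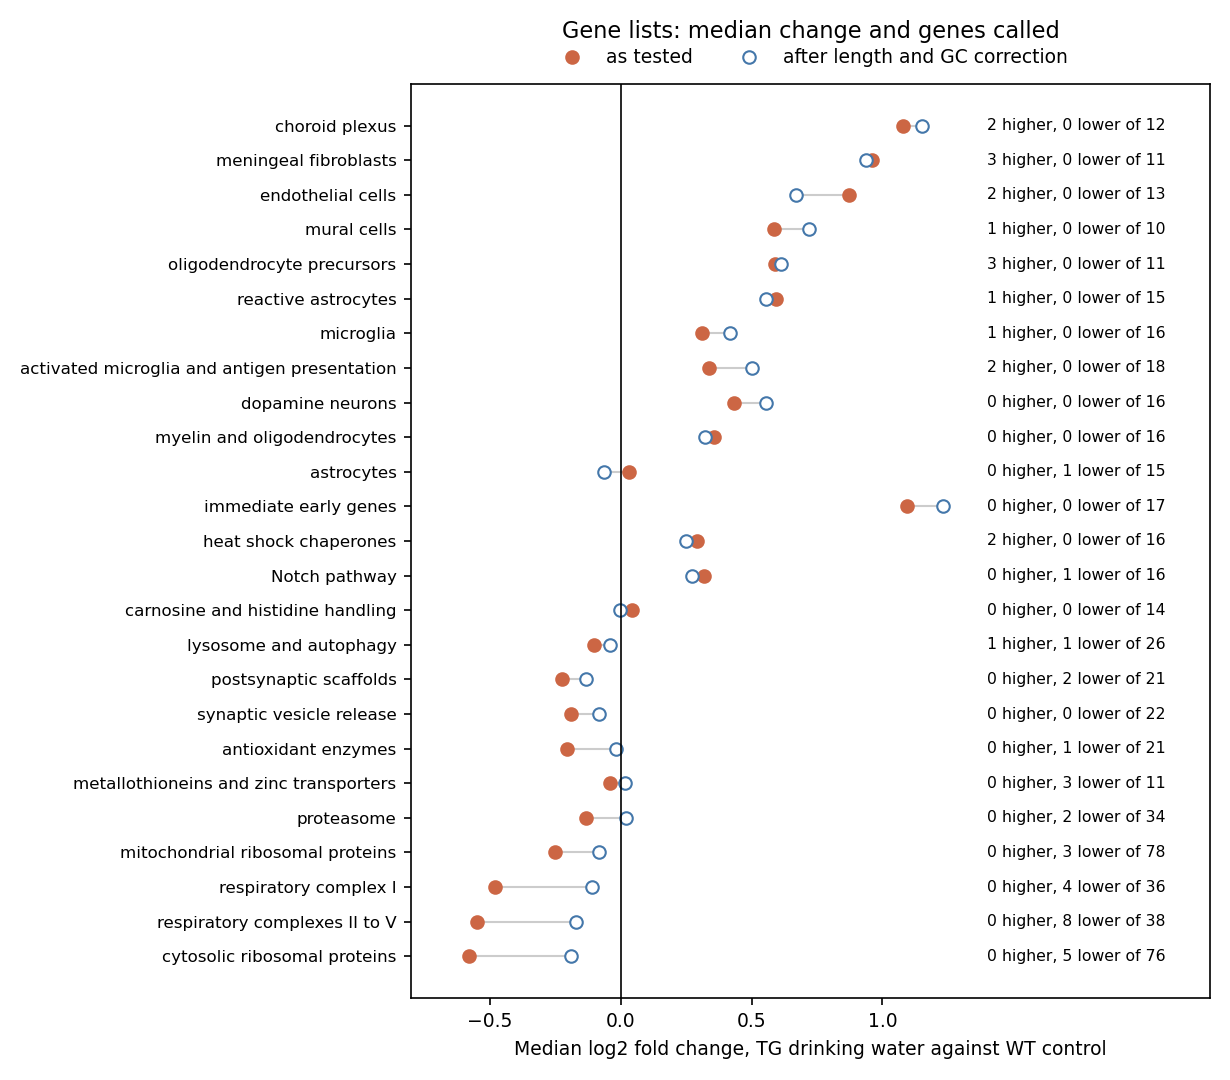
Points are median log2 fold changes of TG drinking water against WT control for gene lists, filled as tested and open after the length and GC correction, and text at the right counts the members called. Ribosomal and respiratory lists move towards 0 after the correction (from -0.58 to -0.19 for cytosolic ribosomal proteins), while choroid plexus and meningeal lists stay near 1.

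Length and base composition went with the direction of change over all genes. Genes that fell had a median transcript length of 1993 bases and a median GC content of 59.0%, and genes that rose had 4903 bases and 47.3%. Over 15050 genes with a transcript length, Spearman's rho of the log2 fold change was 0.42 with length and -0.40 with GC content, as a description across genes that share the 6 libraries. In the quartile with the highest GC content 9.38% were called lower, against 0.106% in the lowest quartile. In the quartile with the longest transcripts 2.42% were called higher, against 0.213% in the shortest. The median GC content of promoters was 61.3% for genes that rose and 61.6% for genes that fell. With the correction 310 genes were called, 137 higher and 173 lower, and 225 of them were among the 592. The share of calls that were higher was then 44.2%, in place of 26.7%.

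**Figure D4:**
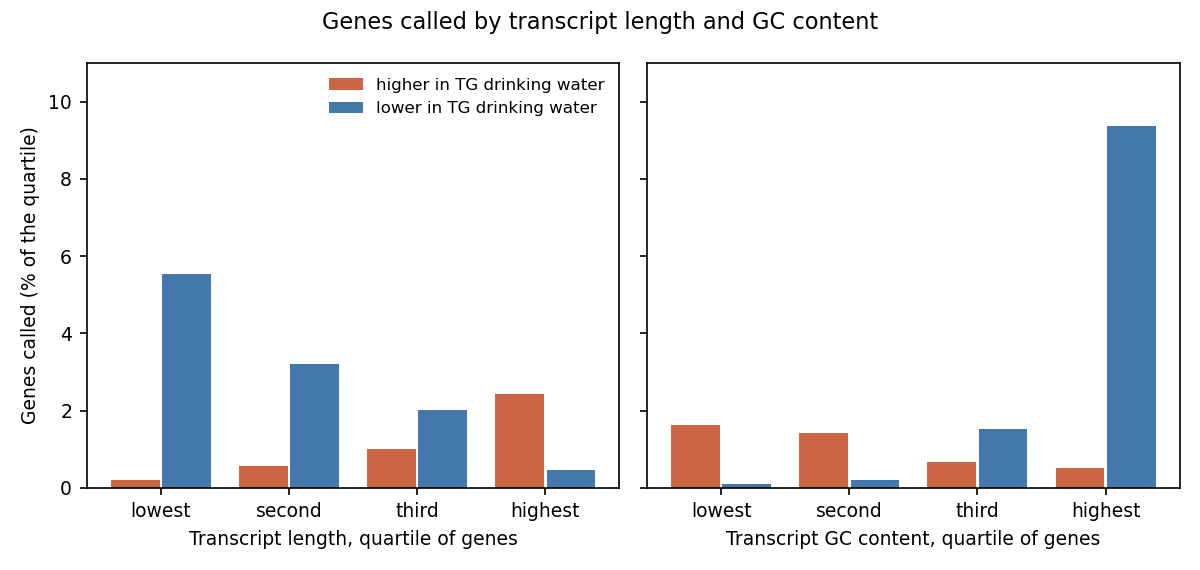
Bars give the percentage of genes called higher or lower in each quartile of genes by transcript length (left) and transcript GC content (right). Calls lower reach 9.38% in the quartile with the highest GC content, and calls higher reach 2.42% in the quartile with the longest transcripts.

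Synaptic and neuronal genes were called lower in small numbers. Hcn2, a pacemaker cation channel, was at 561, 429 and 426 CPM in WT control and 258, 244 and 270.1 CPM in TG drinking water (log2 fold change -0.87 ± 0.15, adjusted p = 0.00736). Its groups did not overlap, and transgenic controls lay between them at 317, 323 and 388 CPM. The postsynaptic scaffolds Dlg4 and Dlgap3 fell from 961 ± 279 to 582 ± 65.8 CPM and from 673 ± 213 to 351 ± 26.3 CPM, while TG control was at 1015 ± 174 and 693 ± 235 CPM. For these 2 scaffold genes TG control was level with WT control. None of 22 synaptic vesicle genes was called, and of 11 cortical and hippocampal genes Lhx2, a LIM homeodomain factor, fell from 72.2 ± 6.60 to 51.7 ± 2.30 CPM. With the length and GC correction the calls of Hcn2 (-0.40, adjusted p = 0.121), Dlgap3 (-0.55, adjusted p = 0.127) and Lhx2 (-0.22, adjusted p = 0.372) were lost and that of Dlg4 was kept. With the library order term Dlgap3 kept its call and Hcn2, Dlg4 and Lhx2 lost theirs. Hcn2 kept its call in 5 of the 6 fits without a library, Dlgap3 in 2, Dlg4 in 1 and Lhx2 in 0.

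Of 16 Parkinson's disease genes Pink1 and Atp13a2 were called, both lower. Pink1, the kinase that marks damaged mitochondria for removal, was at 1288, 1311 and 1148 CPM in WT control and 828, 750.3 and 831 CPM in TG drinking water (log2 fold change -0.64 ± 0.15, adjusted p = 0.0343). Atp13a2, a lysosomal polyamine exporter, was at 224, 299 and 219 CPM against 145, 166 and 170.1 CPM (-0.62 ± 0.16, adjusted p = 0.0445). Neither group overlapped the other. Neither Pink1 nor Atp13a2 passed after the length and GC correction. Each of these 2 genes kept its call in 1 of the 6 fits without a library. Of the 26 lysosome and autophagy genes Npc1 rose and Map1lc3a, which encodes a protein of the autophagosome membrane, fell from 551 ± 176 to 238 ± 49.5 CPM.

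Of the 51 lists examined, 23 held no called gene, among them the serotonin, GABA and glutamate neuron, interferon and circadian clock lists. No gene of 16 dopamine neuron markers was called, and 12 were positive with a median of 0.43. Their summed level was 467 to 533 CPM in WT control and 487 to 613 CPM in TG drinking water, so the groups overlapped. None of the 14 genes of carnosine and histidine handling was called, with a median of 0.04. Antioxidant and metal genes were called lower where they were called at all. Txn2, the mitochondrial thioredoxin, fell from 243 ± 28.1 to 126 ± 12.3 CPM and was the only call among 21 antioxidant enzymes, and Gstm1, a glutathione transferase, was the only call among 16 Nrf2 targets, at 734 ± 33.4 and 459 ± 35.9 CPM.

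Of 11 metallothionein and zinc transporter genes 3 fell. Mt3, the brain metallothionein, was at 1328, 772 and 949 CPM in WT control and 586, 498 and 514 CPM in TG drinking water. Slc30a3, which loads zinc into synaptic vesicles, was at 67.2, 102 and 56.1 CPM against 38.2, 38.9 and 41.6 CPM, and Slc39a1, a zinc importer, fell from 79.5 ± 10.1 to 55.6 ± 2.87 CPM. In polyamine metabolism Oaz1, the antizyme that inhibits ornithine decarboxylase, fell from 92.8 ± 21.1 to 41.2 ± 5.47 CPM, and Smox, spermine oxidase, from 138 ± 19.5 to 94.7 ± 6.16 CPM, as 2 of 10 genes. Ntsr2, a neurotensin receptor of astrocytes, was the only call among 15 astrocyte markers, at 262 ± 7.10 and 176 ± 12.3 CPM, and Tuba1a was the only call among 24 tubulin and cytoskeleton genes. Of these genes, from Txn2 to Tuba1a, each call held in at most 2 of the 6 fits without a library, except Txn2 with 4 and Oaz1 with 3. None of the 11 metallothionein and zinc transporter genes was called after the length and GC correction or with the compared groups only.

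TG intranasal against WT intranasal is a genotype comparison with no library in common with the one reported. Chosen after the data were seen, it gave a median log2 fold change of -0.17 over the 158 genes that rose here and 0.07 over the 434 that fell. Of the 158 genes 46 (29.1%) were higher there, and of the 434 genes 163 (37.6%) were lower. Over all 15818 genes tested 6155 (38.9%) had the same sign in both comparisons, and 48.7% were higher in the intranasal pair. Of the 434 genes 271 (62.4%) were higher there, against 48.7% of all genes. More genes had the opposite sign than the same sign in both called sets and over all genes tested. Meningeal, endothelial and choroid plexus markers had medians of -0.32, -0.41 and -0.16 in that pair, and microglia markers 0.26. Thy1 was higher in that pair too, with a log2 fold change of 3.24. The sample descriptions number WT intranasal 4 to 6 and TG intranasal 10 to 12, so library order and group coincide in that pair as well. With the order term, whose estimate both comparisons then share, 10 of the 11 higher calls and 49 of the 49 lower calls had the same sign in the intranasal pair. Because of the shared estimate these signs are not independent, and the share over all genes with that term was not counted.

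**Figure D5:**
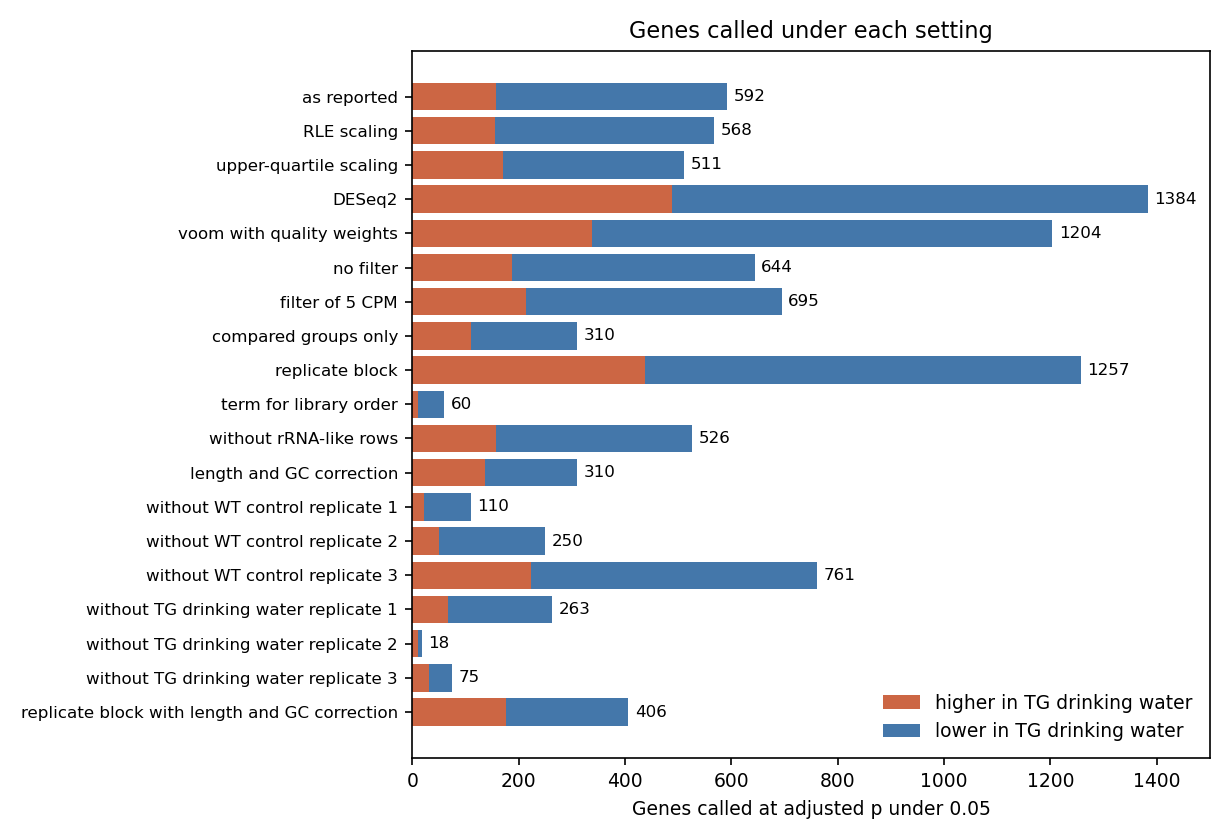
Bars count genes called at an adjusted p under 0.05 in TG drinking water against WT control under each setting, split by direction. The count is 592 as reported and runs from 18 without TG drinking water 2 to 1384 with DESeq2.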

How the data were processed

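RNA from 15 midbrain samples was sequenced from mirVana total RNA with standard Illumina libraries, per the labels' protocols. The authors deposited raw whole-number counts per gene ID, without normalization. No aligner, counter, build or strand is given in the sources used here. Of 24454 IDs, 24374 were named from RefSeq tables of GRCm38.p6. With R 4.3.3 and edgeR 4.0.16, filterByExpr kept 15818 genes, libraries were scaled by TMM, and a quasi-likelihood model with 5 group means was fitted to all 15 libraries. Calls used an adjusted p under 0.05 (Benjamini-Hochberg over all genes tested). CPM were counts scaled to library size after TMM, with a prior count of 2 on the log2 scale. The unnamed rows held 0.148% to 6.23% of counts. Transcript length and GC content came from GENCODE M21 transcripts, and the correction was a loess fit per library. Alternatives included limma 3.58.1 (voom) and DESeq2 1.42.0. Scripts were tested on simulated counts.

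Named are Thy1, the 12 called genes of each direction with the smallest p, the 6 of each direction with the largest change, and members of gene lists with the smallest p. Some genes taken by this rule are not reported here, though they stayed in all fits and counts. The members and lists were chosen with earlier results of these data known. Gh, Ttr, Th, Slc6a3, Gabra6 and Fos were named for levels after these were seen.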

Additional observations from a re-analysis of the deposited data

How the results depend on the processing

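Counts of TG drinking water against WT control are given as all, higher and lower. They were 592, 158 and 434 as reported, 1384, 488 and 896 with DESeq2, 1204, 338 and 866 with voom, and 1257, 438 and 819 with a replicate block. They were 310, 111 and 199 with the compared groups only, 60, 11 and 49 with a term for library order, 310, 137 and 173 with the length and GC correction, and 406, 176 and 230 with that correction and the replicate block, chosen after seeing the data. An adjusted p under 0.1 gave 1367 calls, and an absolute log2 fold change of 1 or more left 200. Without single libraries the counts ran from 18 to 761, from 10 to 223 higher and from 8 to 538 lower. Same-numbered libraries of the 2 groups had correlations of 0.011, 0.090 and -0.022 in their deviations from group means. For TG control and WT control these were 0.226, 0.160 and 0.037, and for TG drinking water and TG control 0.201, 0.161 and -0.091. With 3 libraries a group, such values cannot show whether the numbers pair the libraries. RLE and upper-quartile scaling, no filter, a filter of 5 CPM and leaving out rRNA-like rows gave 511 to 695 calls.

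TG control against WT control gave 2 calls, 420 with DESeq2, 1 with the compared groups only, 531 with a replicate block and 43 with block and correction, and 2 to 3 without single libraries. TG drinking water against TG control gave 1 call, 186 with DESeq2, 234 with voom, 6 with no filter, 2 with a replicate block or an adjusted p under 0.1, 43 with the order term, and 0 to 8 without single libraries. The causes were not tested. With the 5 CPM filter the distance of TG drinking water to WT control was 0.583, beside 0.530 within WT control. After the correction these were 0.723 and 0.733. Levels near 1 CPM, as for Mpzl2 and H2-Eb1 in WT control, rest on few counts.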
